A study of Mus musculus with 13 samples.

Results

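The activator arm of the circadian clock was followed in mouse hearts that carry a changed form of CPT1B, through 4 transcripts: Arntl, which encodes BMAL1, its partners Clock and Npas2, and Rora, which encodes the nuclear receptor ROR alpha. They were chosen by symbol and role, with CPM values and genotype comparisons of these same libraries already known, and are 4 of the 24061 gene symbols of each count file, and each had enough reads to be tested. Transcripts had been counted in 13 hearts of male mice of the C57BL/6N strain, which were fed chow and 13 weeks of age, with 1 poly(A) RNA library per heart. Of these, 5 hearts were E3A/E3A, with both Cpt1b alleles changed, 4 were WT/E3A, with 1 changed allele, and 4 were WT/WT. The E3A allele lowers the sensitivity of CPT1B, the muscle isoform of the enzyme that starts fatty acid entry into mitochondria, to its inhibitor malonyl-CoA. Which mice were littermates, and the time of day at which the hearts were taken, are not stated in the sources used here. The labels describe 4 libraries as potential outliers (E3A/E3A replicates 1 and 2, WT/E3A replicate 1 and WT/WT replicate 1), and values are given with all 13 libraries and with the other 9, which are 3 per genotype. The labels name separate samples and not how they were bred, so p-values measure the spread between these hearts.

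BMAL1 pairs with CLOCK or with its relative NPAS2, and the pair binds E-box sequences and switches on the Per and Cry repressors, the REV-ERB receptors (Nr1d1 and Nr1d2) and the output factor Dbp. PER and CRY proteins then block the pair. In a further loop, ROR receptors activate and REV-ERB receptors repress genes that carry a ROR element, Arntl and Npas2 among them. In the mouse heart this clock is known to time genes of metabolism and electrical activity, and Arntl and Npas2 transcripts are known to cycle in the opposite phase to Dbp and the REV-ERB genes.

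In the 9 hearts without the potential outlier note, Arntl and Npas2 were lower in WT/E3A hearts than in WT/WT hearts, and higher in E3A/E3A hearts than in WT/E3A hearts. Levels are in CPM, reads of the gene per 1 M reads of its library, with library sizes scaled by TMM over the 13 libraries. Arntl averaged 18.3 CPM in WT/E3A, a fitted 0.577 of its WT/WT level, and Npas2 averaged 7.06 CPM, a fitted 0.631 of its WT/WT level. E3A/E3A hearts did not differ detectably from WT/WT hearts in any of the 4 members. Clock and Rora did not pass the test in any genotype comparison, and in the 4 noted libraries they stood well below the level of the other 9. With all 13 libraries no member passed the test, although the Arntl ranges of WT/E3A and of the other genotypes still did not overlap.

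Libraries held 20.1 to 52.6 M counted reads, in which 16713 to 17565 genes were detected. No pair of files held identical values. The 4 noted libraries lay at -82.58 to -25.15 on the first principal component, which held 72.7% of the variance, and the other 9 at 23.16 to 32.63. Replicates varied with a biological coefficient of 28.9% over 13 libraries, against 7.85% over the 9. Cpt1b, which carries the allele, had 1.58 to 3.74 CPM over all libraries, and gene counts do not show the base change itself. How reads that fit several genes were counted is not stated, so this is a counted level and not a measure of how much Cpt1b transcript the hearts held. Of 6 cardiomyocyte markers none was at 0 in any library, and their summed level was 64040 CPM or more in each, while 6 T lymphocyte markers summed to at most 1.61 CPM.

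Arntl lies at chr7:113178471-113314126 on the plus strand of GRCm38 and Npas2 at chr1:39193702-39363240 on the plus strand. Their promoter windows from RefSeq on GRCm38.p6, 250 bases before to 50 after a transcript start, are shown because these are the members whose level differed between genotypes. The Arntl window is chr7:113207261-113207560 and the Npas2 window is chr1:39194022-39194321, both on the plus strand, with letters in capitals where the 11-letter consensus of the ROR element matched.
Arntl: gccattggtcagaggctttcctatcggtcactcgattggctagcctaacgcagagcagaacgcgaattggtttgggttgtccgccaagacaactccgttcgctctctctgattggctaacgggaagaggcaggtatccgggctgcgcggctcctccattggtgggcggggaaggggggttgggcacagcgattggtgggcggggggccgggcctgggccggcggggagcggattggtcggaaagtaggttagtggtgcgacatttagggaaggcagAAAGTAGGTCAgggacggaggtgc
Npas2: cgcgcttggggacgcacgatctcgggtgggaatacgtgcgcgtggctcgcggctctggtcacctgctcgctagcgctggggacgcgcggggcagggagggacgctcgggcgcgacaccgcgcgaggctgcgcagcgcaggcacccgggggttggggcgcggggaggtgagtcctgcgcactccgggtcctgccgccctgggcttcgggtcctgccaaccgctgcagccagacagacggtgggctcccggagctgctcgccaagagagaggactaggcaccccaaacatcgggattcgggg
The Arntl window held 1 such match, AAAGTAGGTCA, starting 27 bases after the start site, and the 6-letter core AGGTCA lies inside it. Of 32851 mouse promoter windows of the same length, 0.384% held the full element on either strand and 16.3% held AGGTCA. A further Arntl window, which starts upstream at 113207215, did not contain it. Neither the full element nor AGGTCA was in the Npas2 and Rora windows, and 1 of 3 Clock windows held AGGTCA alone. The E-box CACGTG (7.15% of all windows) and the D-box TTATGTAA (0.938% of all windows) were in no window of the 4 members. A match describes letters in a window, not a site in use, and these letters are only those of the windows searched.

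Arntl encodes the clock subunit without which the loop stops in mice. In E3A/E3A replicates 1 to 5 it stood at 27.1, 24.7, 31.15, 31.2 and 26.7 CPM, in WT/E3A replicates 1 to 4 at 19.5, 19.7, 19.5 and 15.7 CPM, and in WT/WT replicates 1 to 4 at 20.6, 28.0, 34.8 and 32.7 CPM. Every WT/E3A heart was below every other heart, and WT/WT replicate 1, a noted library, came closest. These values rest on 387 to 1428 Arntl reads per library. Without the noted libraries the mean was 29.7 ± 2.60 CPM in E3A/E3A hearts, 18.3 ± 2.23 CPM in WT/E3A hearts and 31.9 ± 3.46 CPM in WT/WT hearts (SD, n = 3 each).

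For WT/E3A versus WT/WT in the 9 hearts, the log2 fold change of Arntl was -0.79 (SE 0.10, 95% interval -1.02 to -0.57) with an edgeR adjusted p = 0.0258 over 14373 genes. Of all genes tested, 0.0209% were called in this comparison (3 genes), and Arntl and Npas2 were 2 of them, the 2 called lower (0.0139% of all genes). Arntl also belonged to the 6.37% of genes whose WT/E3A values all lay below the WT/WT values. For E3A/E3A versus WT/E3A, the log2 fold change was 0.70 (SE 0.10, interval 0.47 to 0.92) with an edgeR adjusted p = 0.0434, in a comparison where 0.0417% of genes were called (6 genes, 0.0278% higher and Arntl and Npas2 among these) and 5.82% had all E3A/E3A values above the WT/E3A values. These contrasts share the WT/E3A hearts, so they are not separate evidence. Between E3A/E3A and WT/WT the log2 fold change of Arntl was -0.09 (SE 0.10, interval -0.31 to 0.12, edgeR adjusted p = 0.908), where 0.271% of genes were called and no member was. The members were proposed with these results in view, so the p-values describe these hearts and give no independent support.

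With all 13 libraries Arntl averaged 28.2 ± 2.91 CPM in E3A/E3A hearts, 18.6 ± 1.92 CPM in WT/E3A hearts and 29.0 ± 6.30 CPM in WT/WT hearts (SD, n = 5, 4 and 4). The WT/E3A range stayed below the WT/WT range, as for 0.542% of genes tested, and the E3A/E3A range stayed above the WT/E3A range, as for 0.507%. The log2 fold changes were -0.64 (SE 0.16) for WT/E3A versus WT/WT and 0.60 (SE 0.15) for E3A/E3A versus WT/E3A. Arntl ranked 5 of 14387 genes by p in the WT/E3A and WT/WT comparison (unadjusted p = 0.00165), and its edgeR adjusted p was 1 in both comparisons. At this threshold edgeR called 0% of genes in each of these 2 comparisons and 0.00695% (1 gene, no member) for E3A/E3A versus WT/WT. At an unadjusted p under 0.05 there were 117 genes for WT/E3A versus WT/WT and 208 for E3A/E3A versus WT/E3A. With limma-voom quality weights, which let a library that stands apart count for less, Arntl and Npas2 were called with 13 libraries for WT/E3A versus WT/WT (adjusted p = 0.00247 and 0.031, with 5 genes called in all) and for E3A/E3A versus WT/E3A (0.00225 and 0.0265, with 17 genes called).

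**Figure D1:**
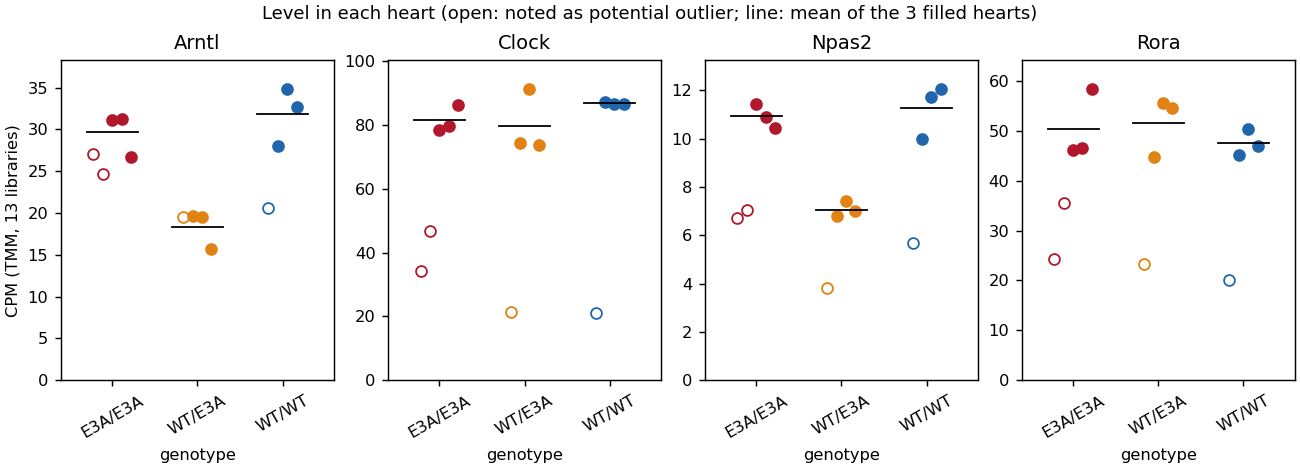
Level of the 4 members in each heart, in CPM with TMM scaling over 13 libraries, with genotypes E3A/E3A, WT/E3A and WT/WT from left to right. Open points are the libraries noted as potential outliers and bars are means of the 3 filled hearts; Arntl and Npas2 were lowest in WT/E3A, with means of 18.3 and 7.06 CPM in the filled hearts, while the open points of Clock and Rora lie below all filled ones.

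Npas2 encodes a partner of BMAL1 that can take the place of CLOCK. It stood at 6.72, 7.05, 11.4, 10.9 and 10.45 CPM in E3A/E3A replicates 1 to 5, at 3.82, 6.78, 7.41 and 7.00 CPM in WT/E3A replicates 1 to 4, and at 5.68, 10.0, 11.7 and 12.04 CPM in WT/WT replicates 1 to 4. Among the 9 hearts without the note, all WT/E3A values lay below all values of the other genotypes. Of all genes tested, 6.37% had WT/E3A values all below the WT/WT values, and 5.82% had E3A/E3A values all above the WT/E3A values. The noted libraries were the lowest of their own genotype in each case, so over all 13 hearts the ranges overlapped. The reads behind these values numbered 111 to 526 per library.

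Npas2 averaged, over the 9 hearts, 10.9 ± 0.496 CPM in E3A/E3A hearts, 7.06 ± 0.318 CPM in WT/E3A hearts and 11.3 ± 1.10 CPM in WT/WT hearts (SD, n = 3 each). For WT/E3A versus WT/WT it gave -0.67 (log2 fold change, SE 0.09, 95% interval -0.87 to -0.46, edgeR adjusted p = 0.0258), and 0.63 (SE 0.09, interval 0.43 to 0.83, edgeR adjusted p = 0.0391) for E3A/E3A versus WT/E3A. Between E3A/E3A and WT/WT it was -0.04 (SE 0.09, interval -0.23 to 0.15, edgeR adjusted p = 0.976). With 13 libraries the corresponding log2 fold changes were -0.66 (SE 0.28), 0.58 (SE 0.27) and -0.08 (SE 0.26), each with an edgeR adjusted p of 1. The size of the WT/E3A difference was therefore much the same in both sets of libraries, and its standard error was about 3 times as large with 13.

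The calls in the 9 hearts depended on single libraries. For WT/E3A versus WT/WT, Arntl and Npas2 remained called when E3A/E3A replicate 3, E3A/E3A replicate 5 or WT/WT replicate 2 was left out. Both lost the call without E3A/E3A replicate 4 (edgeR adjusted p = 0.0661 for each), WT/E3A replicate 2 (0.0904 for Arntl and 0.102 for Npas2), WT/E3A replicate 3 (0.181 and 0.148), WT/E3A replicate 4 (0.0637 and 0.128), WT/WT replicate 3 (0.173 and 0.215) or WT/WT replicate 4 (0.234 for each). The log2 fold change itself stayed between -0.88 and -0.70 for Arntl and between -0.75 and -0.61 for Npas2. For E3A/E3A versus WT/E3A both remained called only without E3A/E3A replicate 5 or WT/WT replicate 2, with edgeR adjusted p-values up to 0.338 for Arntl and 0.245 for Npas2 without another library and log2 fold changes of 0.60 to 0.77 and 0.59 to 0.67. Without E3A/E3A replicate 3 these p-values were 0.202 and 0.156, without E3A/E3A replicate 4 0.338 and 0.242, without WT/E3A replicate 2 0.116 and 0.151, without WT/E3A replicate 3 0.209 and 0.160, without WT/E3A replicate 4 0.197 and 0.245, without WT/WT replicate 3 0.0561 for each, and without WT/WT replicate 4 0.131 and 0.088.

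Clock encodes the usual partner of BMAL1 and lies at chr5:76209868-76305603 on the minus strand. It stood at 34.4, 46.8, 78.6, 79.7 and 86.2 CPM in E3A/E3A replicates 1 to 5, at 21.4, 74.3, 91.25 and 73.85 CPM in WT/E3A replicates 1 to 4, and at 21.05, 87.2, 86.6 and 86.7 CPM in WT/WT replicates 1 to 4. The low values all came from the noted libraries. Among the other 9 the WT/E3A range spanned the other genotypes, and the E3A/E3A values lay just below the WT/WT values, as for 6.97% of genes. Means of the 9 hearts were 81.5 ± 4.10 CPM in E3A/E3A hearts, 79.8 ± 9.92 CPM in WT/E3A hearts and 86.9 ± 0.333 CPM in WT/WT hearts (SD, n = 3 each).

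The log2 fold change of Clock over the 9 hearts was -0.09 (95% interval -0.25 to 0.07) for E3A/E3A versus WT/WT, -0.12 (interval -0.28 to 0.04) for WT/E3A versus WT/WT and 0.03 (SE 0.07) for E3A/E3A versus WT/E3A, with edgeR adjusted p-values of 0.861, 0.829 and 0.960. A missed threshold does not show equal levels, but the interval for WT/E3A versus WT/WT does not reach the -0.79 measured for Arntl. With 13 libraries the interval for E3A/E3A versus WT/WT was much wider, at -1.13 to 0.91. The ratio of Clock to Npas2, each per kilobase of exons, was 2.398, 2.55 and 2.88 in E3A/E3A replicates 3 to 5, 3.83, 4.30 and 3.68 in WT/E3A replicates 2 to 4 and 3.05, 2.58 and 2.51 in WT/WT replicates 2 to 4. Each of these WT/E3A hearts thus had more Clock per Npas2 transcript than any of the other 6. Npas2 alone already set these hearts apart from the other 6, so the ratio is no separate result. In the noted libraries the ratio was 1.785 and 2.317 in E3A/E3A replicates 1 and 2, 1.953 in WT/E3A replicate 1 and 1.293 in WT/WT replicate 1, so the WT/E3A hearts were not apart over all 13.

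**Figure D2:**
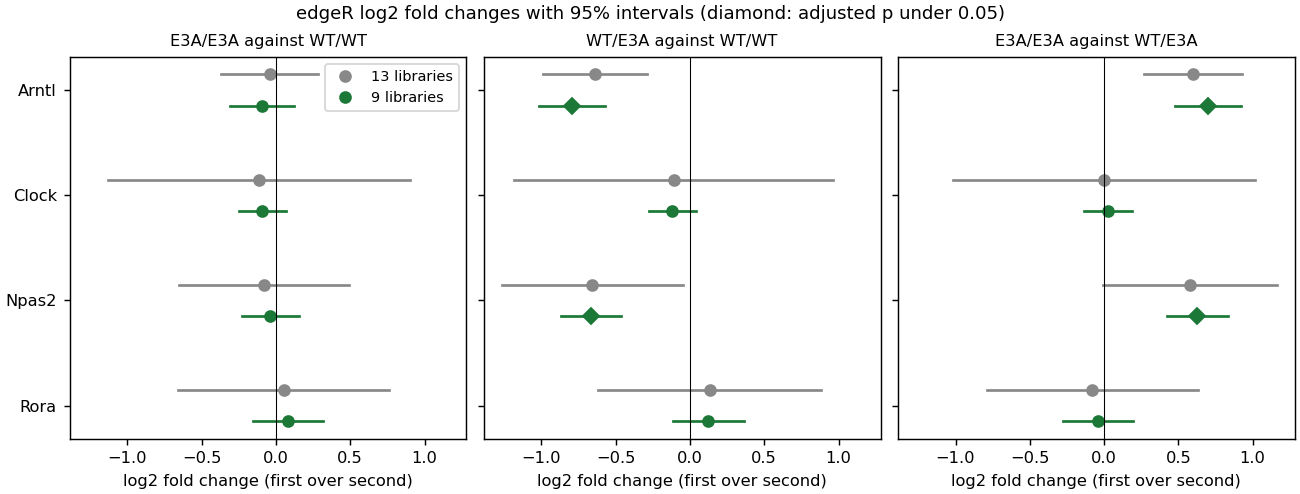
Log2 fold changes from edgeR with 95% intervals for the 4 members, in panels for E3A/E3A versus WT/WT, WT/E3A versus WT/WT and E3A/E3A versus WT/E3A. Grey marks use 13 libraries, green marks the 9 without the note, and diamonds have an adjusted p under 0.05: only Arntl (-0.79 and 0.70) and Npas2 (-0.67 and 0.63) do, in the panels that involve WT/E3A.

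Rora encodes ROR alpha, an activator at ROR elements, and lies at chr9:68653404-69388246 on the plus strand. It stood at 24.3, 35.6, 46.1, 46.6 and 58.4 CPM in E3A/E3A replicates 1 to 5, at 23.4, 44.8, 55.5 and 54.6 CPM in WT/E3A replicates 1 to 4, and at 20.2, 45.2, 50.4 and 47.0 CPM in WT/WT replicates 1 to 4. The genotypes overlapped, and again the lowest hearts were the noted ones. Means without the noted hearts were 50.4 ± 6.92 CPM in E3A/E3A hearts, 51.7 ± 5.94 CPM in WT/E3A hearts and 47.5 ± 2.63 CPM in WT/WT hearts (SD, n = 3 each).

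The log2 fold change of Rora in the 9 hearts was 0.08 (SE 0.11, interval -0.15 to 0.32, edgeR adjusted p = 0.933) for E3A/E3A versus WT/WT, 0.12 (SE 0.11, interval -0.11 to 0.36, 0.871) for WT/E3A versus WT/WT and -0.04 (SE 0.11, 0.956) for E3A/E3A versus WT/E3A. No fall of Rora beside those of Arntl and Npas2 was detectable in WT/E3A hearts. Rorb, which encodes a receptor related to ROR alpha, had 23 to 51 reads per library and Arntl2, a relative of Arntl, 62 to 188, and neither passed the test in any comparison.

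Read against transcript length, Clock was the most abundant member in the 9 hearts, at 6.03 CPM per kilobase of exons (SD 0.455, n = 9), followed by Rora at 3.81 (SD 0.389), Arntl at 3.54 (SD 0.897) and Npas2 at 2.04 (SD 0.441). The ranges of Rora and Arntl overlapped, as did those of Arntl and Npas2, while the lowest Clock heart (5.38) lay above the highest Rora heart (4.47). Among relatives, Arntl2 was at 0.650 CPM per kilobase and Rorb at 0.106. Lengths are the union of annotated exons, so a gene whose longest ends are not used in the heart appears lower than it is.

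The 4 noted libraries were low in Clock and Rora whatever their genotype. Clock ranged from 21.05 to 46.8 CPM in the noted libraries, against 73.85 to 91.25 CPM in the others, and the ratio of the means was 0.374. Rora ranged from 20.2 to 35.6 CPM against 44.8 to 58.4 CPM, a ratio of 0.519. Npas2 ranged from 3.82 to 7.05 CPM against 6.78 to 12.04 CPM, a ratio of 0.597, and Arntl from 19.5 to 27.1 CPM against 15.7 to 34.8 CPM, a ratio of 0.863. The members thus did not shift by a common factor. With total count scaling these ratios were 0.316, 0.435, 0.501 and 0.720, and with DESeq2 size factors 0.376, 0.523, 0.602 and 0.871. How the submitters arrived at the note is not stated in the sources used here, so the difference is a description and carries no test. The 6 cardiomyocyte markers moved with the note: with the noted libraries included, their summed level reached 128600 CPM in E3A/E3A, 166200 CPM in WT/E3A and 160300 CPM in WT/WT, against at most 70300, 73900 and 69800 CPM without them. Other markers moved too. With the noted libraries, fibroblast sums reached 1194, 2264 and 1849 CPM in the same order of genotypes, against at most 959.9, 945.6 and 875.7 CPM without them. Atrial sums reached 672.1, 689.7 and 579.1 CPM, against 457.4, 288.0 and 244.8 CPM. Smooth muscle sums reached 286.6, 289.3 and 290.2 CPM, against 227.4, 244.1 and 181.0 CPM. The highest T lymphocyte sums were the same with and without the noted libraries. The part of these cell types in the member levels was not tested, and in bulk tissue fewer cells of a type and less RNA per cell cannot be told apart.

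Marker levels of cell types were also summed by genotype in the 9 hearts, and many of the ranges overlapped. Some did not: smooth muscle sums of WT/WT lay below those of both other genotypes. Macrophage sums of E3A/E3A lay above those of WT/E3A, and fibroblast sums of E3A/E3A above those of WT/WT. Cardiomyocyte markers summed to 69740 to 70300 CPM in E3A/E3A, 66890 to 73900 CPM in WT/E3A and 64040 to 69800 CPM in WT/WT. Atrial markers, of which 1 was at 0 in a library of E3A/E3A and of WT/E3A, summed to 205.4 to 457.4 CPM in E3A/E3A, 134.9 to 288.0 CPM in WT/E3A and 123.8 to 244.8 CPM in WT/WT. Endothelial markers were 1169 to 1396 CPM in E3A/E3A, 1087 to 1254 CPM in WT/E3A and 1219 to 1274 CPM in WT/WT, and all 6 had a fold change below 0 for WT/E3A versus WT/WT, with a median of -0.09 and none called. For E3A/E3A versus WT/E3A all 6 endothelial markers were above 0, with a median of 0.13 and 3 at an unadjusted p under 0.05, and all 5 atrial markers were above 0, with a median of 0.85 and 0 at that p. The 5 atrial markers were also all above 0 for E3A/E3A versus WT/WT, with a median of 0.84 and 1 at that p. The 4 smooth muscle markers summed to 183.1 to 227.4 CPM in E3A/E3A, 181.1 to 244.1 CPM in WT/E3A and 167.6 to 181.0 CPM in WT/WT. All 4 were above 0 for WT/E3A versus WT/WT, with a median of 0.27 and 2 at an unadjusted p under 0.05. They were also all above 0 for E3A/E3A versus WT/WT, with a median of 0.28 and 1 at that p. Macrophage markers summed to 187.1 to 201.4 CPM in E3A/E3A, 166.9 to 182.0 CPM in WT/E3A and 160.0 to 192.6 CPM in WT/WT. Fibroblast markers summed to 878.0 to 959.9, 861.7 to 945.6 and 838.7 to 875.7 CPM. For E3A/E3A versus WT/WT all 5 macrophage and all 6 fibroblast markers were above 0, with 2 of each at an unadjusted p under 0.05. Of 14373 genes tested, 1105 had an unadjusted edgeR p under 0.05 for E3A/E3A versus WT/WT. There were 914 for WT/E3A versus WT/WT and 993 for E3A/E3A versus WT/E3A. With edgeR no marker of these types, nor of white adipocytes or T lymphocytes, was called in the 9 hearts. The part of these cells in the Arntl and Npas2 differences was not tested.

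The sample titles begin with C2, C3, C4 or C6. What this prefix stands for is not stated in the sources used here, and it was not spread evenly over genotypes. All 3 libraries of C2 (2 E3A/E3A, 1 WT/WT) were noted. There were 2 E3A/E3A hearts in C3 beside 1 WT/E3A and 1 WT/WT heart, 1 E3A/E3A heart in C4 beside 3 WT/E3A hearts, and 2 WT/WT hearts alone in C6. C6 thus has no other genotype to set against WT/WT. Within C3, Arntl was 31.15 and 26.7 CPM in E3A/E3A, 19.7 CPM in WT/E3A and 28.0 CPM in WT/WT, so that WT/E3A versus WT/WT gave a log2 difference of -0.51 and E3A/E3A versus WT/E3A 0.55. Within C4, Arntl was 31.2 CPM in E3A/E3A against 15.7 to 19.5 CPM in WT/E3A, a difference of 0.78. Npas2 gave -0.56 for WT/E3A versus WT/WT within C3, and 0.69 within C3 and 0.91 within C4 for E3A/E3A versus WT/E3A. The C4 values include WT/E3A replicate 1, a noted library, without which they were 0.83 for Arntl and 0.60 for Npas2. The directions of both genes held within each prefix that contained WT/E3A and another genotype, on 1 heart a side in the WT/E3A and WT/WT case. Clock and Rora differed by -0.23 and -0.01 for WT/E3A versus WT/WT within C3.

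With the prefix as a term in the 9-heart model, Arntl and Npas2 lost the call for WT/E3A versus WT/WT (log2 fold changes -0.61 and -0.52, edgeR adjusted p = 1 for each). They also missed it for E3A/E3A versus WT/E3A (0.70 and 0.64, edgeR adjusted p = 0.0783 for each). In that model the WT/WT side rests on replicate 2 alone. A test of the prefix itself, with genotype in the model, called none of the 4 members with 13 libraries (edgeR adjusted p = 0.173 for each, with unadjusted p-values of 0.0155 to 0.0472, against 28.7% of all genes at an unadjusted p under 0.05) and none with 9 (adjusted p = 1, unadjusted p-values of 0.175 to 0.828, against 3.72% of all genes). It called 0% of genes with 13 libraries and 0.0209% with 9. The result with 13 libraries depended on the fit. A DESeq2 likelihood ratio test called 3 members among 3231 genes called, and edgeR without WT/E3A replicate 1 called 4 among 8145. Since C2 holds only noted libraries, its prefix and the note cannot be told apart.

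**Figure D3:**
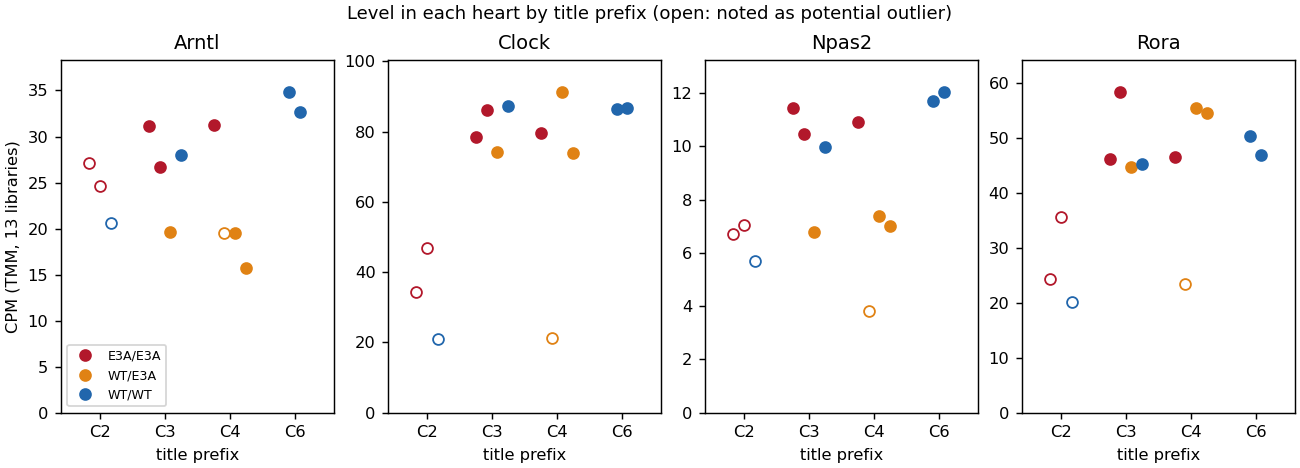
Level of the 4 members in each heart by title prefix, in CPM with TMM scaling over 13 libraries, with colours for E3A/E3A, WT/E3A and WT/WT and open points for noted libraries. Prefix C2 holds only noted libraries and C6 only WT/WT; within C3 and C4 the WT/E3A hearts are the lowest for Arntl, at 15.7 to 19.7 CPM.

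Several clock genes around the members had differences of the opposite sign to those of Arntl and Npas2. Of 12 repressors and outputs driven through E-boxes or D-boxes, 11 had a log2 fold change above 0 for WT/E3A versus WT/WT in the 9 hearts, with a median of 0.55 against -0.00132 for all genes, and edgeR called 1 of them, Hlf. Hlf, a transcription factor of the same family as Dbp, averaged 29.2 ± 0.921 CPM in E3A/E3A hearts, 36.4 ± 3.18 CPM in WT/E3A hearts and 24.3 ± 1.17 CPM in WT/WT hearts (SD, n = 3 each). For WT/E3A versus WT/WT Hlf had a log2 fold change of 0.58 with SE 0.07 (edgeR adjusted p = 0.00927), and the call was lost without WT/WT replicate 3 (0.108) or WT/WT replicate 4 (0.0718) and with the prefix in the model (0.912). All 12 had a fold change below 0 for E3A/E3A versus WT/E3A, with a median of -0.41 against 0.00268 for all genes and none called by edgeR. DESeq2 called more genes in these 9 hearts, 19 for WT/E3A versus WT/WT and 38 for E3A/E3A versus WT/E3A, against 3 and 6 with edgeR. Among the 12, DESeq2 called Per3, Nr1d2, Dbp, Tef and Hlf in both, higher in WT/E3A each time. Of the 12, 9 were above 0 for E3A/E3A versus WT/WT, with a median of 0.11 and none called by either tool.

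Values of single genes in this group show how wide the hearts spread. Per2, a repressor of the BMAL1 pair, was 5.16, 7.02 and 19.8 CPM in E3A/E3A replicates 3 to 5, 13.2, 20.7 and 35.5 CPM in WT/E3A replicates 2 to 4, and 9.98, 3.42 and 5.75 CPM in WT/WT replicates 2 to 4. For WT/E3A versus WT/WT it gave a log2 fold change of 1.82 with SE 0.68 (edgeR adjusted p = 0.766), and the E3A/E3A range overlapped both others. Per3, its relative, was 27.6, 25.95 and 21.7 CPM in E3A/E3A, 38.2, 34.3 and 42.9 CPM in WT/E3A and 25.8, 21.8 and 20.1 CPM in WT/WT (0.76, SE 0.12, edgeR adjusted p = 0.163 for WT/E3A versus WT/WT). Dbp, a direct output of the BMAL1 pair, was 22.0, 16.85 and 12.4 CPM in E3A/E3A, 38.5, 27.15 and 38.0 CPM in WT/E3A and 18.9, 17.4 and 13.4 CPM in WT/WT (1.05, SE 0.25, edgeR adjusted p = 0.585). For Per3 and Dbp every WT/E3A heart of the 9 was above every other. Of all genes, 6.35% had WT/E3A values that were all above the WT/WT values, and 5.29% had E3A/E3A values that were all below the WT/E3A values. Neither gene passed the edgeR test, whereas DESeq2 called both for WT/E3A versus WT/WT (adjusted p = 2.05e-07 for Per3 and 0.0258 for Dbp) and for E3A/E3A versus WT/E3A (0.000241 and 0.0251). With edgeR, Per3 was also called for WT/E3A versus WT/WT without E3A/E3A replicate 5 (adjusted p = 0.0286) or WT/WT replicate 2 (0.0171). Tef, a further relative of Dbp, averaged 111.9 ± 0.619 CPM in E3A/E3A hearts, 142.9 ± 17.2 CPM in WT/E3A hearts and 103.2 ± 5.02 CPM in WT/WT hearts (SD, n = 3 each), with an edgeR adjusted p = 0.0504 for WT/E3A versus WT/WT. This p lay at the threshold, and Tef was called with DESeq2 size factors (0.0499), without a low count filter (0.0103), by DESeq2 (6.4e-06), and without WT/WT replicate 2 (0.0447) or WT/E3A replicate 3 (0.0283). Per1 and Cry2 did not pass the test in any comparison, with log2 fold changes of 0.76 and 0.24 for WT/E3A versus WT/WT.

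The REV-ERB genes encode the repressors that compete with ROR receptors. Nr1d1 averaged 114.2 ± 13.6 CPM in E3A/E3A hearts, 147.1 ± 15.3 CPM in WT/E3A hearts and 139.0 ± 14.3 CPM in WT/WT hearts (SD, n = 3 each), and Nr1d2 averaged 104.1 ± 5.12 CPM in E3A/E3A hearts, 142.5 ± 10.9 CPM in WT/E3A hearts and 105.5 ± 11.9 CPM in WT/WT hearts (SD, n = 3 each). Neither passed the edgeR test for WT/E3A versus WT/WT (adjusted p = 0.926 and 0.242), but Nr1d2 was called by DESeq2 (adjusted p = 0.000484) and by edgeR without WT/WT replicate 2 (0.00842). The ratio of Arntl to Nr1d1 reads, which needs no scaling between libraries, was 0.198, 0.222, 0.241, 0.282 and 0.260 in E3A/E3A replicates 1 to 5, 0.110, 0.122, 0.149 and 0.106 in WT/E3A replicates 1 to 4, and 0.126, 0.212, 0.224 and 0.253 in WT/WT replicates 1 to 4. WT/WT replicate 1 fell inside the WT/E3A range, and the other hearts of both homozygous genotypes lay above it. The ratio of Arntl to Dbp reads was 1.07 to 2.15 in E3A/E3A, 0.414 to 0.720 in WT/E3A and 0.860 to 2.43 in WT/WT over all 13 libraries, with no overlap between WT/E3A and the rest. Arntl and Dbp alone each already set WT/E3A apart over the 13 libraries, in opposite directions, so their ratio is no separate result. Nr1d1 alone did not, and its WT/E3A range overlapped both others. Arntl enters the ratio to Nr1d1 as well, so that ratio is no separate result either.

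Of the 5 genes listed as driven through ROR elements (Arntl, Clock, Npas2, Cry1 and Nfil3), all had a log2 fold change below 0 for WT/E3A versus WT/WT in the 9 hearts, with a median of -0.18, and the 2 called were Arntl and Npas2. Cry1, a repressor, had -0.14 (edgeR adjusted p = 0.829), and Nfil3, which represses at D-boxes, had -0.18 (0.911). For E3A/E3A versus WT/E3A all 5 were above 0, with a median of 0.63, and Nfil3 had 0.70 (edgeR adjusted p = 0.694, called by DESeq2 at 0.0113) and Cry1 0.20 (0.717). Clock, Arntl and Npas2 are on this list by choice, so its direction is no separate result. Elsewhere, 0 of 11 clock kinases and ubiquitin ligases, 0 of 8 tested other genes of the bHLH-PAS family and 0 of 11 heart outputs of the clock, such as the potassium channel subunit Kcnip2 and the regulator Klf15, were called in any comparison of the 9 hearts, by edgeR or DESeq2. As edgeR called only 0.0209% to 0.271% of all genes in these comparisons, lists this short would rarely hold a called gene, and the counts of 0 do not show unchanged levels. At an unadjusted edgeR p under 0.05, WT/E3A versus WT/WT gave 1, 2 and 1 genes of these lists, against 914 of 14373 genes tested. Medians of the 3 lists for WT/E3A versus WT/WT were 0.02, -0.16 and 0.08. With 13 libraries edgeR called 0 genes of these lists, and all 12 E-box and D-box genes still had a fold change above 0 for WT/E3A versus WT/WT, with a median of 0.52.

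**Figure D4:**
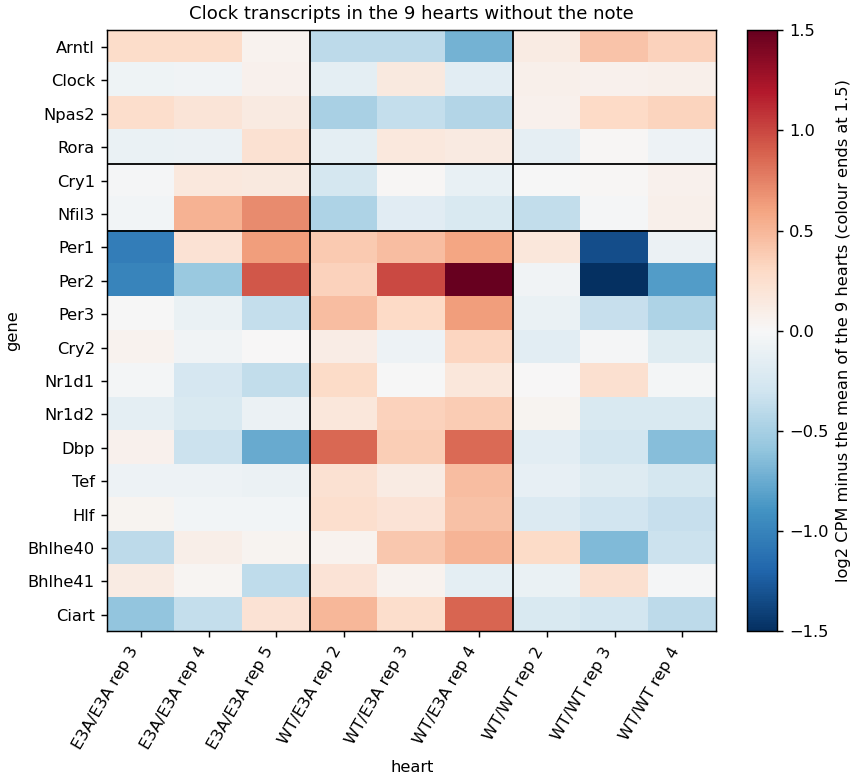
Log2 CPM of clock transcripts in the 9 hearts without the note, each gene minus its mean over those hearts, with E3A/E3A, WT/E3A and WT/WT from left to right. Lines part the 4 members, other ROR element genes, and E-box and D-box genes; Arntl and Npas2 are blue (lower) in the 3 WT/E3A hearts, where Per3, Dbp, Tef and Hlf are red (higher).

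How the members varied with each other was computed for the 6 pairs among them. The 3 WT/E3A hearts lie apart on Arntl and Npas2, so r is given within the 6 homozygous hearts of the 9. There Arntl and Npas2 had a Pearson r of 0.858 (exact two-sided permutation p = 0.0347, 0.208 after Benjamini-Hochberg adjustment over the 6 pairs) and a Spearman rho of 0.829 (exact permutation p = 0.0583, adjusted 0.350). The relation did not pass the adjusted threshold. The other 5 pairs had r between -0.386 and 0.355 (adjusted exact permutation p = 0.821 for each), and rho between -0.0857 and 0.314 (adjusted 0.919 for each). Without the 2 hearts farthest from the median, r over the 6 pairs ran from -0.806 (Clock and Rora) to 0.962 (Arntl and Rora), with 0.956 for Arntl and Npas2, so the 4 hearts left set no pair apart.

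Among 10420 genes with a mean of at least 5 CPM, likeness to each member over the 9 hearts was ranked by Pearson r of log2 CPM, as a description without a test, and for Arntl and Npas2 it includes the separation of the WT/E3A hearts. Npas2 was the gene ranked 2 for Arntl (r = 0.962), after Pddc1 (0.970) and before Cyp4f16, a cytochrome P450 (0.945), and Arntl was ranked 1 for Npas2. The lowest r with Arntl belonged to Plxna4, a semaphorin receptor (-0.965), Nr1d2 (-0.954) and Tef (-0.951). For Npas2 the next highest were Tbc1d8 (0.937) and Zfp212 (0.930), and the lowest were 1810013L24Rik (-0.945), Thrap3 (-0.939) and Sec23ip (-0.937). Clock was closest to Eea1 (0.929), Stam (0.928) and Tmem230 (0.925), and farthest from Ntmt1 (-0.959), Repin1 (-0.936) and Supt4a (-0.927). Rora was closest to Cdk13 (0.959), Zhx3 (0.956) and Zcchc14 (0.951), and farthest from Tmem53 (-0.950), Gid8 (-0.937) and Car7 (-0.920). No clock gene of the lists was among the nearest or farthest genes of Clock and Rora.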

How the data were processed

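Poly(A) RNA of whole hearts had been sequenced as single-end reads, and the authors deposited 1 file of read counts per gene symbol for each of the 13 hearts. Reads were aligned with STAR 2.4.0 to mm10 (GRCm38) and counted with featureCounts 1.4.4, per the submitters' processing notes. The sources used here do not state how strand, or reads that fit several genes, were handled. Antisense genes overlap the exons of Arntl by 33 bases and of Rora by 82 bases, and are not in the files.

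The test was edgeR 4.0.16 (under R 4.3.3), with low counts removed by filterByExpr for each genotype, TMM scaling and robust quasi-likelihood F tests over the 3 genotypes, with Benjamini-Hochberg adjustment over all genes tested and a threshold of 0.05. Levels of single hearts and group means are CPM scaled over all 13 libraries, and each set of fold changes uses its own scaling. The prefix of the title was tested as a term beside genotype. Log2 CPM for correlations had 0.1 CPM added. The same code was run on simulated counts without outlying libraries or prefix differences, so that check does not bear on either.

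The members and gene lists were chosen with earlier results of these data known. The genes named are the 4 members, their relatives Rorb and Arntl2, the core clock genes, genes of the lists that passed the test, and the 3 highest and 3 lowest in likeness to each member among genes with at least 5 CPM on average, apart from 1 gene that is not reported here. Groups came from the genotype labels; replicate numbers follow accession order and pair nothing. Alternatives were DESeq2 1.42.0 and its size factors, upper quartile scaling, no filter on low counts, limma 3.58.1 with voom and with quality weights, the prefix as a block, and leaving out each library. Gene positions and promoters came from RefSeq (GRCm38.p6) and exon lengths from GENCODE vM21, in which all 52 genes of the clock lists were found. Depth was 20.1 to 52.6 M reads, and standard errors cover the spread between hearts and counting error only.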

Additional observations from a re-analysis of the deposited data

Results flagged for a closer look

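In 5 of 54 groups of 4 or 5 hearts examined, 1 library lay far from the others by Dixon's test, which chance alone does in about 1 group in 20. Arntl was 15.7 CPM in WT/E3A replicate 4, below the 19.5 CPM of the next lowest WT/E3A heart, with that gap taking up 0.964 of the group's range. Clock was 21 CPM in WT/WT replicate 1, against 86.6 CPM in the next lowest WT/WT heart (0.990 of the range). That library is noted as a potential outlier, and it was also flagged for Hlf, at 9.41 CPM against 23.1 CPM in the next (0.855), and for Cry1, at 17.5 CPM, above the next highest at 13.4 CPM (0.852). Cry1 was flagged as well in E3A/E3A replicate 3, at 12.6 CPM, below the next lowest E3A/E3A heart at 14.1 CPM (0.800).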

How the results depend on the processing

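No paired analysis was possible because replicate numbers follow accession order and no label pairs hearts across genotypes. With voom quality weights on all 13 libraries, 2 members were called for WT/E3A versus WT/WT (Arntl -0.83, adjusted p = 0.00247; Npas2 -0.71, 0.0310) and 2 for E3A/E3A versus WT/E3A (0.73, 0.00225; 0.60, 0.0265), against 0 with edgeR; these fits called 5 and 17 genes in all, and 73 for E3A/E3A versus WT/WT. DESeq2 called 24, 0 and 4 genes with 13 libraries and 98, 19 and 38 with 9 for E3A/E3A versus WT/WT, WT/E3A versus WT/WT and E3A/E3A versus WT/E3A, against 1, 0 and 0 and against 39, 3 and 6 with edgeR; without a filter edgeR called 5 and 10 in the last 2 comparisons with 9. For the prefix with 13 libraries DESeq2 called 3 members among 3231 genes called, and leaving out each library gave 0 to 4, with 4 among 8145 genes called without WT/E3A replicate 1, against 0 of 14387 genes in all with edgeR; with 9 libraries the fit without WT/WT replicate 2 could not be made. With the 9 libraries, against 2 called, limma-voom called 1 member for WT/E3A versus WT/WT (Npas2 had adjusted p = 0.0579; 2 genes called in all), upper quartile scaling called 1 for E3A/E3A versus WT/E3A (Arntl had 0.0638; 5 genes called), the prefix as a block called 0 in each (0 and 2 genes called, and 10 for E3A/E3A versus WT/WT), and leaving out each library gave 0 to 2 in each. Over all these alternatives the adjusted p of Arntl ran from 7.85e-09 to 1 and that of Npas2 from 0.000143 to 1 for WT/E3A versus WT/WT, and from 1.07e-06 to 0.338 and 0.00041 to 0.245 for E3A/E3A versus WT/E3A. With genotype means removed, r over the 9 hearts was 0.631 for Arntl and Npas2 (adjusted exact permutation p = 0.856) and 0.141 for Npas2 and Rora, against 0.962 and -0.23 with the genotype differences kept in.

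Signs turned only for log2 fold changes near 0. With 13 libraries and the prefix as a block, E3A/E3A versus WT/WT gave 0.202 for Arntl, 0.401 for Clock and 0.214 for Npas2, WT/E3A versus WT/WT gave 0.0572 for Clock, and E3A/E3A versus WT/E3A gave 0.344 for Clock and 0.17 for Rora. Clock turned to 0.0147 with limma-voom for E3A/E3A versus WT/WT, and for E3A/E3A versus WT/E3A to 0.00924 with upper quartile scaling, 0.00212 without a filter and 0.104 with limma-voom. In the 9 hearts the block gave 0.0877 for Arntl and 0.118 for Npas2 in E3A/E3A versus WT/WT. Leaving out each of the 13 libraries gave E3A/E3A versus WT/WT ranges of -0.175 to 0.0559 (Arntl), -0.415 to 0.0493 (Clock), -0.271 to 0.0316 (Npas2) and -0.171 to 0.198 (Rora). For Clock and Rora the ranges were -0.414 to 0.181 and -0.0919 to 0.345 in WT/E3A versus WT/WT, and -0.293 to 0.206 and -0.292 to 0.0659 in E3A/E3A versus WT/E3A. With the 9 libraries they were -0.119 to 0.0181 (Npas2) and -0.0347 to 0.143 (Rora) in E3A/E3A versus WT/WT, and -0.0267 to 0.14 (Clock) and -0.16 to 0.0181 (Rora) in E3A/E3A versus WT/E3A. The causes were not tested. Npas2 had the fewest reads of the members, 111 in its lowest library.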
